A study of Trametes versicolor and Gelatoporia subvermispora with 30 samples.

Results

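TvLac3 is 1 of 7 genes that carry a laccase symbol among the 14570 genes counted in Trametes versicolor, a white-rot fungus of hardwoods. It was taken by its symbol from the T. versicolor count tables, and it was chosen by its measured level, which was higher with each phenolic acid or lignin added to the culture than on cellobiose alone. The series holds 26883 genes over both of its fungi, and Gelatoporia subvermispora was not analysed here. The 15 T. versicolor libraries come from 5 culture conditions with 3 libraries each, all in submerged culture in the same defined mineral medium. Cultures with lignin received 25 mg of lignin isolated from poplar per 25 mL together with cellobiose at 5 g/L. Cultures with syringic acid received 2 mM of that acid and the same cellobiose, and cultures with 4-hydroxybenzoic acid (4HBA) received 2 mM of 4HBA and the same cellobiose. The poplar cultures held 2 g of autoclaved milled poplar wood per 25 mL and no cellobiose. The remaining cultures held cellobiose at 5 g/L alone. The labels do not say whether the 3 libraries of a condition came from separate cultures, so p-values cover the spread among these libraries, which may be technical.

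Laccases are secreted multicopper oxidases that take electrons from phenols and hand them to oxygen, which is reduced to water. The phenoxy radicals they leave can couple to each other or break down further, and small molecules oxidised by a laccase can carry the reaction to parts of lignin that the enzyme itself does not reach. White-rot fungi usually hold several laccase genes, and the laccases of T. versicolor are among the best known enzymes of the class. Both acids are phenols of the kind released from lignin, and syringic acid is 4HBA with methoxy groups flanking the hydroxyl. Cellobiose, the disaccharide unit of cellulose, served as the sugar source.

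TvLac3 carries the gene number gene250 in the count tables and the locus tag TRAVEDRAFT_138261 in the RefSeq table of the Trametes versicolor v1.0 assembly of strain FP-101664 SS1, where its gene span is 2074 bp. The count tables do not name the genome build they used, so no chromosome or position is given. The identity of the gene as a laccase rests on its symbol in both tables.

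Libraries held 16661967 to 50410869 gene counts. They fell into 2 types that coincide with the culture conditions. The 10 most abundant genes took 3.84% to 7.45% of gene counts in the 9 libraries with lignin, syringic acid or poplar, and 41.9% to 48.4% in the 6 libraries with 4HBA or cellobiose alone. Levels are therefore given as CPM, the counts scaled to a common library size, after TMM normalization, which sets each library against the bulk of its genes, and CPM by library totals alone are given where they differ in direction. A CPM is a share of the reads of a library, so more transcript per cell and a larger part of the mycelium making it cannot be told apart.

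TvLac3 was highest with lignin and lowest on milled poplar. In the lignin libraries it stood at 266, 493 and 418 CPM, on 9550, 17798 and 16370 reads. Replicate 1 was the lowest of the lignin libraries and still lay above every library with syringic acid, poplar or cellobiose alone. With 4HBA the levels were 280, 193 and 176 CPM, on 4652, 2824 and 2683 reads. Replicate 1 of 4HBA thus exceeded lignin replicate 1, and these 2 conditions overlapped. With syringic acid TvLac3 stood at 126, 85.5 and 151 CPM, on 4911, 2150 and 4890 reads. The lowest of these came from the library with the fewest gene counts of all, syringic acid replicate 2. On milled poplar the levels were 15.5, 15.8 and 31.2 CPM, on 660, 772 and 1359 reads. Replicate 3 stood apart from a closely matched pair there. On cellobiose alone they were 43.5, 47.1 and 60.6 CPM, on 677, 803 and 1109 reads. All 9 libraries with an added phenolic compound or lignin thus lay above all 3 libraries with cellobiose alone, a separation the choice of the gene already contains, and all 3 poplar libraries lay below them.

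**Figure D1:**
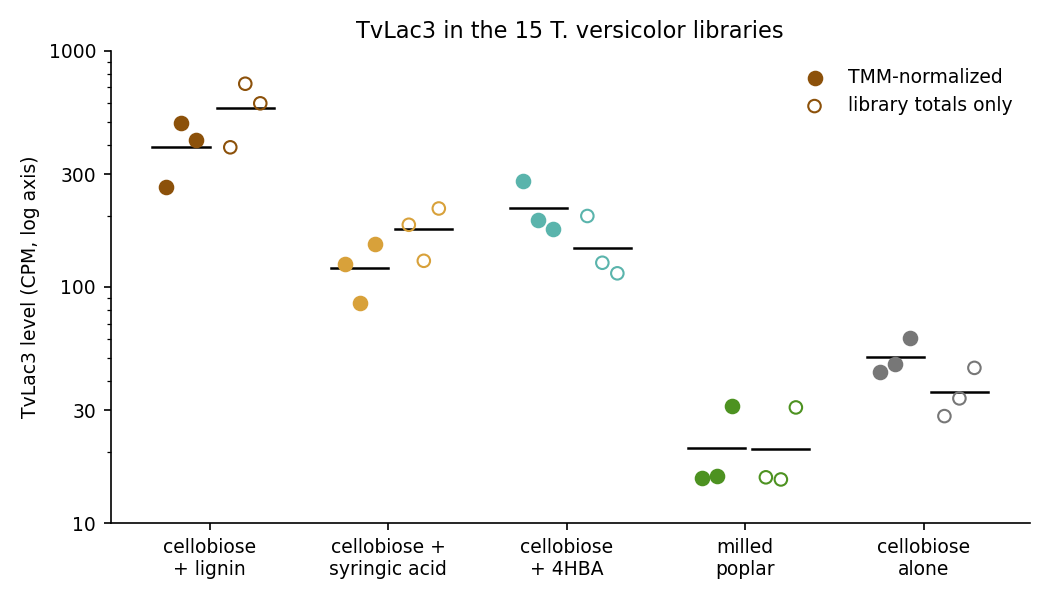
TvLac3 level in normalized CPM (log axis) in each of the 15 T. versicolor libraries, by culture condition. Filled points are TMM-normalized, open points use library totals only, and lines are means of 3 libraries. The lignin libraries lie highest at 266 to 493 CPM and the poplar libraries lowest at 15.5 to 31.2 CPM. By totals only, the open points of syringic acid lie above or among those of 4HBA.

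Mean levels were 392 ± 116 CPM for lignin, 121 ± 33.2 CPM for syringic acid, 216 ± 55.7 CPM for 4HBA, 20.8 ± 8.97 CPM for poplar and 50.4 ± 9.002 CPM for cellobiose alone (SD, n = 3 each). In falling order the conditions ran lignin, 4HBA, syringic acid, cellobiose alone and poplar. Of the neighbours in that order, lignin and 4HBA had overlapping libraries, and the other pairs did not overlap under TMM normalization. By library totals alone the order of the acids turned, with 129 to 215 CPM for syringic acid and 114 to 200 CPM for 4HBA, which overlap. Poplar and cellobiose alone also overlapped on that scale, at 15.3 to 30.9 CPM and 28.4 to 45.4 CPM, because replicate 3 of poplar was above replicate 1 of cellobiose.

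TvLac3 varied more between libraries of a condition than most genes did. Its highest library exceeded its lowest by a factor of 1.86 with lignin, 1.77 with syringic acid, 1.59 with 4HBA, 2.01 on poplar and 1.39 on cellobiose alone. Counting error was small beside this, since the 95% Poisson interval reached 1.47% to 7.71% to either side of a library's value. The biological coefficient of variation that edgeR estimated for TvLac3 was 0.244, and the trend over genes of its abundance was at 0.104. Of all tested genes 98.6% had a lower estimate, as did 99.3% of the 965 genes closest to it in abundance. The standard errors below carry this spread.

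Against cellobiose alone, TvLac3 was higher by 2.96 (SE 0.31) on the log2 scale with lignin, by 1.26 (SE 0.29) with syringic acid and by 2.10 (SE 0.30) with 4HBA. The gene was chosen for these 3 differences, so they are given without a test. They share the same cellobiose libraries. Among the 12295 tested genes the lignin difference ranked 11 from the top, the 4HBA difference 46 and the syringic acid difference 317. Of all tested genes, 362 (2.94%) were called higher with each of the 3 additions at an adjusted p below 0.05, and 38 (0.309%) were also at least 2-fold higher with each. TvLac3 was the only one of those 38 that carries a symbol instead of a locus tag. It was chosen for these same differences, and the share of all tested genes with a symbol was not counted. Nothing is read from its being the only symbol. On poplar, 20 of the 38 were called higher than on cellobiose alone, 9 lower and 9 neither, where 35.7% of all tested genes were higher and 35.4% lower. The 38 were picked against the same cellobiose libraries, so nothing is read from this count. TvLac3 was among the 9 that were lower. Lignin gave the highest mean of the 5 conditions in 12 of the 38, poplar in 10, syringic acid in 9 and 4HBA in 7. The share of all tested genes with their highest mean in each condition was not counted. The 38 were picked for high levels with the additions, so nothing is read from these counts either.

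The order of the additions was not fixed by the choice of the gene and was tested with edgeR's quasi-likelihood test, adjusted over all tested genes. With lignin TvLac3 was higher than with syringic acid by 1.70 (SE 0.29, adjusted p = 0.00176) on the log2 scale, and all 3 lignin libraries lay above all 3 with syringic acid. Both conditions share a library type, 8.74% of tested genes were called in this comparison, and the TvLac3 difference ranked 15 from the top. Over the other settings, DESeq2 among them, the difference was 1.69 to 1.70 with adjusted p from 5.83e-05 to 0.0164, and it stayed past the threshold without any 1 library. The cultures differ in the mass and kind of the aromatic material added, so this compares cultures and not matched doses.

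At the same 2 mM of either acid, TvLac3 differed between syringic acid and 4HBA by -0.84 on the log2 scale, lower for syringic acid (SE 0.28, 95% interval -1.44 to -0.23, edgeR adjusted p = 0.0241). The call covers 48.2% of all tested genes in this comparison, and the acids differ in library type, whose part in the difference cannot be told apart. The call was lost without 4HBA replicate 1 (-0.61), without syringic acid replicate 1 (-0.87) and without syringic acid replicate 2 (-0.64), with edgeR adjusted p from 0.0148 to 0.126 over the 6 libraries left out in turn. By library totals alone the median of all genes shifted by 1.12 here, and the difference was 0.26 in the other direction and was not called (edgeR adjusted p = 0.369, against 0.00963 to 0.0482 under the other settings). The data thus give no stable order between the acids. With lignin TvLac3 was higher than with 4HBA by 0.86 (SE 0.28, edgeR adjusted p = 0.0190), beside 52.4% of genes called and again across library types. That call was lost without lignin replicate 2 (0.66), 4HBA replicate 2 (0.78) or 4HBA replicate 3 (0.73), with edgeR adjusted p from 0.00610 to 0.0879 over the 6 libraries left out in turn. By library totals alone the difference was 1.9602.

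On milled poplar TvLac3 fell by 1.28 on the log2 scale (SE 0.30, edgeR adjusted p = 0.00118) relative to cellobiose alone. Poplar was not among the additions the choice rests on, but the cellobiose libraries are shared with it, library type differs, and 71.2% of all tested genes were called. The fall was called under each other setting, with a log2 difference from -1.36 to -0.80 and adjusted p from 0.000551 (DESeq2) to 0.0186 (edgeR by library totals), and without any 1 of the 6 libraries (-1.69 to -1.10). Within library type, TvLac3 on poplar differed by -4.24 (SE 0.32) from lignin and by -2.54 (SE 0.30) from syringic acid, and it differed by -3.38 (SE 0.31) from 4HBA. These last 3 values are given without a test, since the choice of the gene favours high levels with the additions. Poplar libraries were also deeper than those with lignin or syringic acid, so sharing a library type does not make them alike. By library totals the median of all genes shifted by -0.56 for poplar against lignin and by -0.56 against syringic acid.

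**Figure D2:**
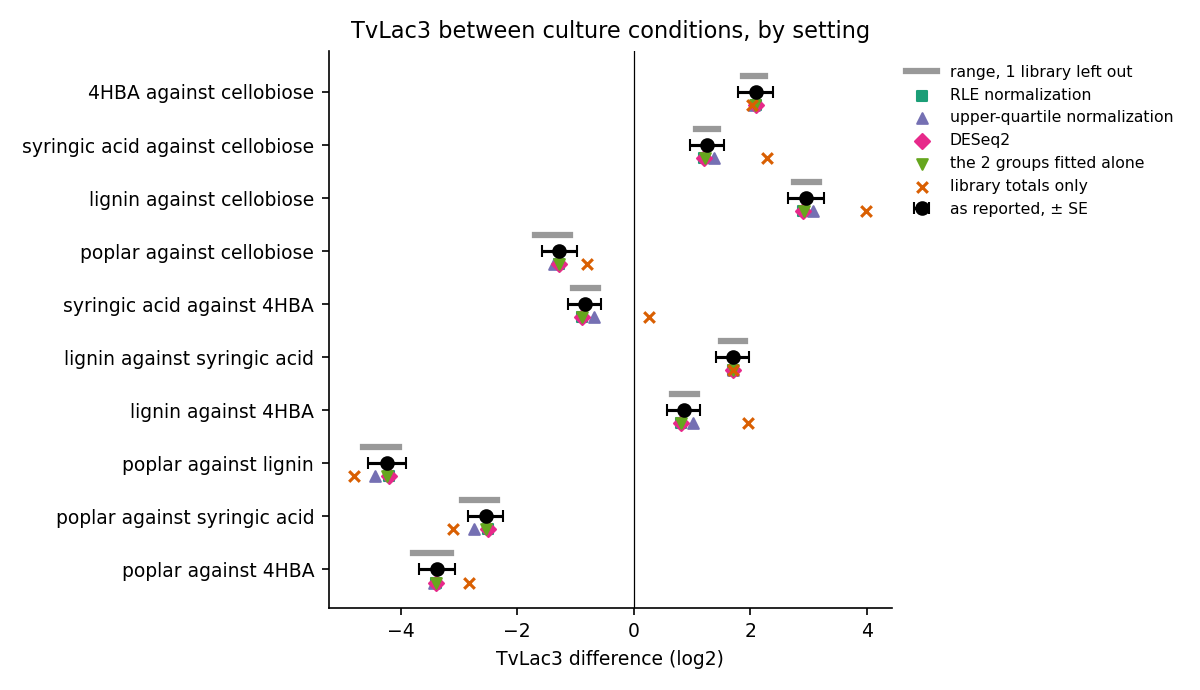
Log2 difference of TvLac3 between culture conditions, the condition named first minus the condition named second. Black points with bars are the values reported with 1 SE, grey lines span the fits with 1 library left out, and coloured marks are other settings. Only syringic acid against 4HBA crosses zero, at 0.26 by library totals.

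The 7 laccase genes differed in level far more than in length, their gene spans being 2074 to 2266 bp. Per kilobase of gene span, TvLac3 stood at 189 ± 55.9 CPM with lignin, 58.3 ± 16.01 with syringic acid, 104 ± 26.8 with 4HBA, 10.0 ± 4.32 on poplar and 24.3 ± 4.34 on cellobiose alone (SD, n = 3 each). TvLac1 was the other abundant laccase, at 61.9 ± 10.8, 34.99 ± 12.7, 110.3 ± 17.0, 11.01 ± 1.19 and 146 ± 28.1 CPM per kilobase in the same order of conditions. TvLac3 therefore had the highest mean of the 7 with lignin and syringic acid, and TvLac1 had it with 4HBA, on poplar and on cellobiose alone. With 4HBA and on poplar the means of both were closer than their SDs, and TvLac3 in poplar replicate 3 (15.04) exceeded TvLac1 in every poplar library (at most 12.1). The mean level per kilobase of every other laccase stayed below TvLac3 and TvLac1 in every condition, from 0.504 CPM for TvLac7 on cellobiose alone to 10.5 CPM for TvLac4 with lignin. Set among the 12285 genes with a known span, TvLac3 ranked 424 with lignin, 936 with 4HBA, 1590 with syringic acid, 3823 on cellobiose alone and 6227 on poplar.

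**Figure D3:**
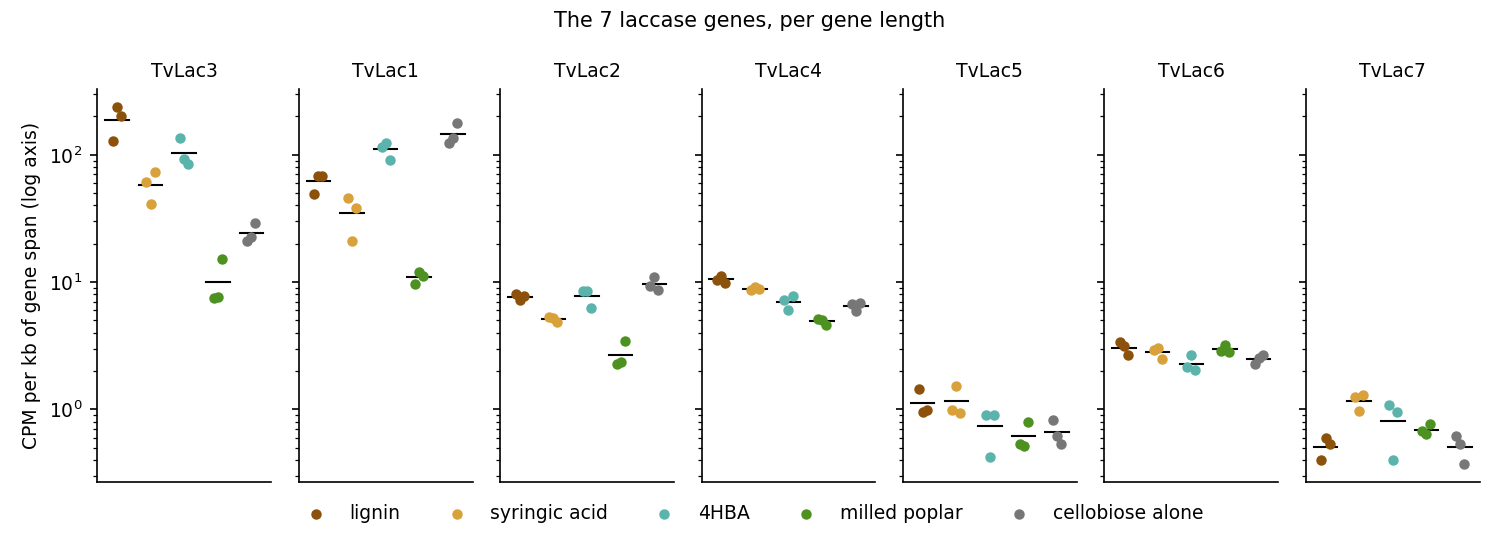
Levels of the 7 laccase genes in CPM per kilobase of gene span (log axis), with 1 point per library and lines at the mean of 3 libraries. TvLac3 has the highest mean with lignin (189) and syringic acid (58.3), and TvLac1 the highest on cellobiose alone (146).

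The other 6 laccases, a list chosen with earlier results of these data known, gave mixed counts beside TvLac3. With 4HBA edgeR called 0 of the 6, where 16.4% of all tested genes were called, and their median log2 difference from cellobiose alone was -0.02, against -0.00 over all genes. DESeq2 also called 0, and 1 of the 6, TvLac7, was past an unadjusted edgeR p of 0.05 (0.72). TvLac7 was called higher with 4HBA without 4HBA replicate 2 (1.04, edgeR adjusted p = 0.0157). With syringic acid 3 of the 6 rose and 2 fell, where 27.1% of all tested genes rose and 22.4% fell, 49.5% in all. Their median was 0.31, against 0.07 over all genes. With lignin 2 rose and 1 fell, where 26.9% of all tested genes rose and 23.0% fell, 49.9% in all. Their median was 0.16, against 0.07 over all genes. TvLac2 (-0.34, not called) was called lower with lignin under RLE scaling (-0.38), TMM without genes above 1% of counts (-0.39), both conditions fitted alone (-0.38) and DESeq2 (-0.38), which gives 2 that fell. TvLac6 was called higher with lignin under upper-quartile scaling (0.42) and without lignin replicate 3 (0.38), which gives 3 that rose.

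TvLac1 fell by 1.23 on the log2 scale with lignin and fell by 2.06 with syringic acid relative to cellobiose alone, where TvLac3 was higher. By library totals the TvLac1 difference with lignin was -0.20 and was not called, while TvLac2 (0.71), TvLac6 (1.33) and TvLac7 (1.07) were called higher with lignin, and TvLac6 (1.21) with syringic acid. On that scale 11304 of the 12295 tested genes were called higher and 216 lower with lignin, 11349 higher and 193 lower with syringic acid, and the median of all genes was 1.12 in both, so nothing is read from these gains. TvLac2 fell by 0.92 with syringic acid, and by library totals it differed by 0.14 in the other direction. TvLac4 rose by 0.69 with lignin and by 0.45 with syringic acid, and its difference with 4HBA was 0.11, which was not called. TvLac7, the laccase with the lowest level per kilobase on cellobiose alone, rose by 1.24 with syringic acid but had a difference of 0.03 with lignin. TvLac5 was called higher with lignin (0.78) and with syringic acid (0.80). Its lignin call was lost without lignin replicate 1 (0.58), cellobiose replicate 2 (0.75) or cellobiose replicate 3 (0.64), under RLE scaling (0.74) and under TMM without genes above 1% of counts (0.73), and its syringic acid call without syringic acid replicate 2 (0.57), cellobiose replicate 2 (0.77) or cellobiose replicate 3 (0.66) and under the same TMM setting (0.75).

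On poplar 0 of the 6 rose and 3 fell relative to cellobiose alone, where 35.7% of all tested genes rose and 35.4% fell. The median was -0.25, against -0.01 over all genes. TvLac1 fell by 3.73, TvLac2 fell by 1.85 and TvLac4 fell by 0.40, and by library totals TvLac4 differed by 0.0877 in the other direction. By library totals TvLac6 (0.73) and TvLac7 (0.96) were called higher on poplar, which gives 2 higher and 2 lower of the 6. On that scale 6836 of the 12295 tested genes were called higher and 2167 lower, with a median of 0.47. Relative to lignin, 4 of the 6 fell on poplar, where 76.8% of all tested genes were called and 39.4% fell. Relative to syringic acid 5 of the 6 fell, where 72.5% were called and 37.4% fell. Relative to 4HBA 1 rose and 3 fell, where 69.5% were called, 35.4% higher and 34.1% lower. TvLac3 was lower on poplar in each of these comparisons as well.

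Between lignin and syringic acid, within 1 library type, 2 of the other 6 laccases were called higher with lignin and 1 was called lower, where 3.95% of all tested genes were higher and 4.79% lower. TvLac7 differed by -1.21 (SE 0.24, edgeR adjusted p = 0.00520), and its call held without any 1 library. TvLac1 was called higher with lignin by 0.82, a call that was lost without lignin replicate 2 (0.74), lignin replicate 3 (0.75) or syringic acid replicate 3 (0.88) and with both conditions fitted alone (0.82). TvLac2 was called higher by 0.58, a call that was lost without lignin replicate 1 (0.54), lignin replicate 3 (0.57), syringic acid replicate 1 (0.60) or syringic acid replicate 3 (0.55). TvLac4, TvLac5 and TvLac6 had differences of 0.24, -0.01 and 0.12 that were not called. The median of the 6 was 0.18, against -0.01 over all genes.

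Between syringic acid and 4HBA, 1 of the 6 was called higher and 2 lower, where 26.2% of all tested genes were higher and 22.0% lower. TvLac4 was the higher one at 0.35, a call that was lost without 4HBA replicate 2 (0.25) and with both conditions fitted alone (0.29). TvLac1 differed by -1.65 and TvLac2 by -0.59, and TvLac2 turned to 0.52 by library totals. Upper-quartile scaling also called TvLac5 (0.76), TvLac6 (0.46) and TvLac7 (0.67) higher with syringic acid, 4 of the 6, where 4915 of all tested genes were higher and 1868 lower. Library totals called the same 3 higher (1.72, 1.42 and 1.63) and TvLac2 as well, where 11567 genes were higher and 123 lower. TvLac6 was also called without syringic acid replicate 3 (0.39) or 4HBA replicate 2 (0.42), and TvLac7 without 4HBA replicate 1 (0.79). Between lignin and 4HBA 2 were called higher and 2 lower, where 28.4% of all tested genes were higher and 24.1% lower. TvLac4 (0.59) and TvLac6 (0.43) were higher, and TvLac1 (-0.83) and TvLac7 (-0.69) were lower, and by library totals TvLac1 turned to 0.28 and TvLac7 to 0.41, neither called. TvLac5 was called higher with lignin under upper-quartile scaling (0.75), where 4944 of all tested genes were higher and 2063 lower. By library totals TvLac5 (1.7007) and TvLac2 (1.0972) were called higher, which gives 4 higher and 0 lower of the 6, where 11409 genes were higher and 168 lower. The TvLac6 call was lost without lignin replicate 1 (0.36), 4HBA replicate 1 (0.38) or 4HBA replicate 3 (0.35) and with both conditions fitted alone (0.37). The TvLac7 call was lost without lignin replicate 1 (-0.55), lignin replicate 3 (-0.73), 4HBA replicate 1 (-0.42) or 4HBA replicate 3 (-0.58), under upper-quartile scaling (-0.54), with no expression filter (-0.69) and with both conditions fitted alone (-0.75).

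The part of all laccase reads that fell on TvLac3 does not depend on how libraries are scaled against each other. It was 62.2%, 71.0% and 67.8% in the lignin libraries, 46.7%, 48.6% and 54.9% with syringic acid, 48.2%, 37.9% and 42.1% with 4HBA, 25.0%, 23.1% and 37.4% on poplar, and 12.1%, 11.9% and 12.2% on cellobiose alone. The 3 lignin libraries lay above all others and the 3 cellobiose libraries below all others. The share is made in part of the counts that led to the choice of the gene, so it was not tested. Its rise over cellobiose alone is no separate support. The exact (Clopper-Pearson) 95% binomial intervals cover counting error only. On poplar they ran from 23.4% to 26.7%, from 21.7% to 24.6% and from 35.9% to 39.0%, and on cellobiose alone they ran from 11.2% to 12.9%, from 11.2% to 12.7% and from 11.5% to 12.9%. Poplar thus combined the lowest TvLac3 level with a higher share of TvLac3 among laccase reads than cellobiose alone had. TvLac1 fell by 3.73 on the log2 scale there. The reads of all 7 laccases together made up 580 ± 138 CPM with lignin, 240.2 ± 55.9 with syringic acid, 502 ± 81.1 with 4HBA, 71.2 ± 10.9 on poplar and 418 ± 70.3 on cellobiose alone (SD, n = 3 each). Without TvLac3 these sums were 187 ± 22.4, 119 ± 27.0, 286 ± 38.7, 50.4 ± 3.31 and 367 ± 61.3 CPM in the same order of conditions. Unlike the share, both sums depend on the scaling, which is TMM here. By library totals the mean sum of all 7 was no longer lower with syringic acid than with 4HBA or cellobiose alone.

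**Figure D4:**
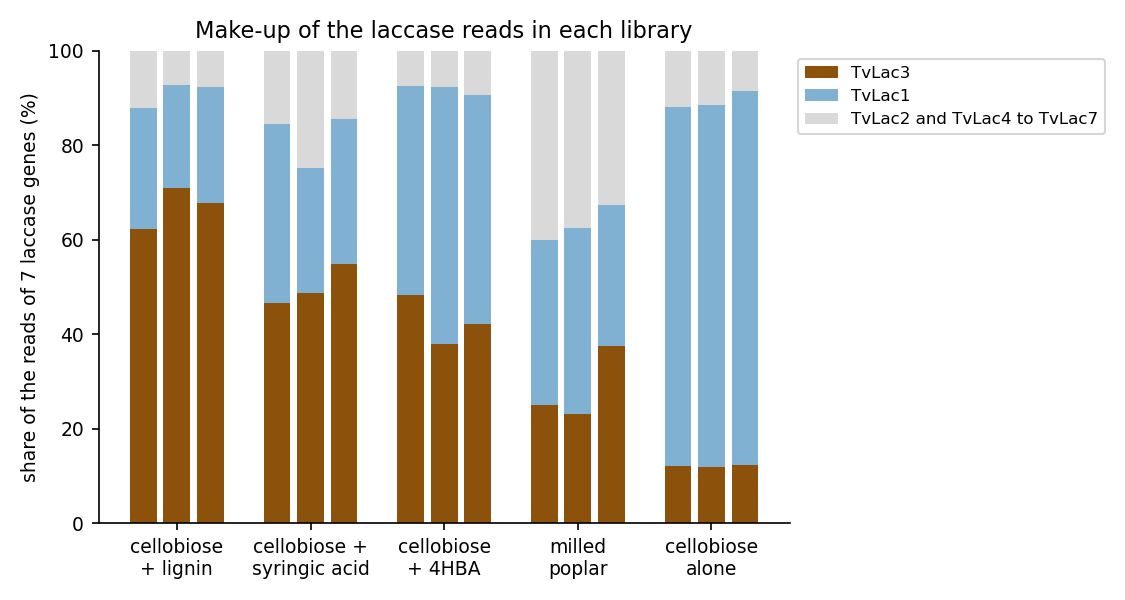
Share of the reads of the 7 laccase genes (percent) that fell on TvLac3, TvLac1 and the other 5 genes in each library, with 3 bars per culture condition. TvLac3 takes 62.2% to 71.0% with lignin and 11.9% to 12.2% on cellobiose alone.

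The number of TvLac3 reads per TvLac1 read was 2.42, 3.25 and 2.77 with lignin, 1.23, 1.83 and 1.80 with syringic acid, 1.09, 0.699 and 0.868 with 4HBA, and 0.719, 0.588 and 1.25 on poplar. On cellobiose alone it was 0.159, 0.156 and 0.154. The cellobiose libraries were thus almost alike in this ratio although their TvLac3 level spanned a factor of 1.39, and in no other condition were the 3 ratios as close. Lignin, syringic acid and 4HBA did not overlap with one another in the ratio. Syringic acid stood above 4HBA in the ratio, opposite to the order of their TMM-normalized TvLac3 levels. Between these acids TvLac3 differed by -0.84 and TvLac1 by -1.65 on the log2 scale, both lower with syringic acid. Poplar overlapped with both acids, its replicate 3 standing just above the lowest library with syringic acid. No test was made of the ratio, which rests in part on the counts that led to the choice of the gene.

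Genes with a pattern like that of TvLac3 were sought among the 7438 other tested genes with a mean of at least 10 CPM, by Pearson's r of log2 CPM over the 15 libraries. These libraries share culture conditions and library types, so r is a description of likeness and no p is given. Only 7 genes had r above 0.9 and 135 had r above 0.8. The 6 most similar were TRAVEDRAFT_43426 (r = 0.96), TRAVEDRAFT_73002 (r = 0.95), TRAVEDRAFT_45229 (r = 0.94), TRAVEDRAFT_71236 (r = 0.94), TRAVEDRAFT_25981 (r = 0.93) and TRAVEDRAFT_121349 (r = 0.92). The tables at hand give no product names for these locus tags. All 6 had their highest mean with lignin and their lowest on poplar, as TvLac3 had.

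TRAVEDRAFT_43426 stood at 26.8, 35.96 and 32.5 CPM for lignin, 16.2, 18.3 and 16.6 CPM for syringic acid, 33.7, 28.2 and 30.8 CPM for 4HBA, 6.90, 6.38 and 8.10 CPM on poplar, and 12.2, 11.3 and 10.5 CPM on cellobiose alone. Its lignin and 4HBA libraries overlapped and the other conditions lay apart, the same arrangement as for TvLac3 at a smaller range. TRAVEDRAFT_121349, the 1 of the 6 with a larger fall on poplar than TvLac3, differed from cellobiose alone by -1.74 on poplar and by 1.49 with lignin on the log2 scale. TRAVEDRAFT_25981 had the smallest range, with a difference of 0.40 with lignin. The 6 genes had log2 differences of 0.36 to 1.16 between lignin and syringic acid, which is a description, since they were picked for likeness to TvLac3 over these libraries.

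**Figure D5:**
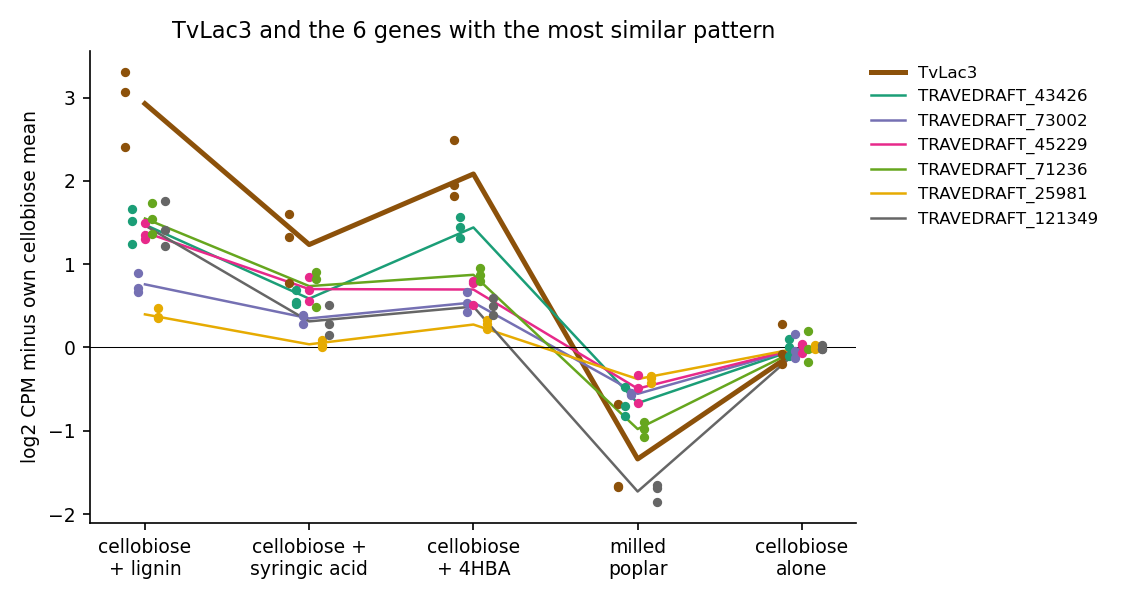
Log2 CPM of TvLac3 and of the 6 genes most similar to it, minus each gene's own mean on cellobiose alone. Points are libraries and lines join means of 3 libraries. All 7 genes are highest with lignin and lowest on poplar, and TvLac3 has the widest range between its highest and lowest condition.

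Among genes with a symbol, TvLac4 was the most similar (r = 0.82), followed by LDO2 (r = 0.64), TvLac2 (r = 0.61) and MnP1s (r = 0.59), a manganese peroxidase by its symbol. Among all 7438 genes these ranked only 81, 823, 970 and 1036. The order of these symbols depended on the measure, since Spearman's rho was 0.80 for TvLac4, 0.28 for LDO2, 0.33 for TvLac2 and 0.09 for MnP1s. Likeness to the other laccases depended on which libraries were compared. Over the 9 libraries with syringic acid, lignin and poplar, r with TvLac3 was 0.97 for TvLac1, 0.97 for TvLac2 and 0.93 for TvLac4. Over the 6 libraries with 4HBA and cellobiose alone it was -0.56, -0.62 and 0.39. Those 6 libraries hold the 4HBA difference for which TvLac3 was chosen, and TvLac1 was not called between them (-0.40).

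The 5 nearest genes on each side in the RefSeq order, a set added after values had been seen, were all tested. Of these 10, 0 rose and 1 fell with 4HBA (7.35% of all tested genes fell), 3 rose and 1 fell with syringic acid (27.1% and 22.4% of all), 4 rose and 2 fell with lignin (26.9% and 23.0%), and 1 rose and 6 fell on poplar (35.7% and 35.4%), relative to cellobiose alone. The 4 that rose with lignin had low means of 2.36, 0.877, 0.212 and 1.07 CPM, and the lowest is a tRNA gene. The 5 neighbours with a mean of at least 10 CPM differed by -0.59 to 0.25 with lignin. DESeq2 called 1 higher and 1 lower with syringic acid, where 2950 of all genes were higher and 3108 lower. Its counts for the other conditions against cellobiose alone were the same. Between lignin and syringic acid, where 8.74% of all tested genes were called, edgeR called 0 of the 10, DESeq2 also called 0, and 1 higher and 2 lower passed an unadjusted edgeR p of 0.05. With lignin against 4HBA edgeR called 6 higher and 1 lower (28.4% and 24.1% of all tested genes), and DESeq2 4 and 1. With syringic acid against 4HBA edgeR called 3 higher and 1 lower (26.2% and 22.0%), and DESeq2 1 and 1. Directly beside TvLac3 are TRAVEDRAFT_67877 and TRAVEDRAFT_67879. Their differences from cellobiose alone were 0.01 and 0.25 with lignin, -0.09 and 0.40 with syringic acid, -0.26 and -0.07 with 4HBA and 0.29 and 0.09 on poplar, on the log2 scale. Between lignin and syringic acid the 10 neighbours differed by -0.38 to 1.02, and the 5 with a mean of at least 10 CPM by -0.22 to 0.10, where TvLac3 differed by 1.70.

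Other secreted oxidative enzymes, again lists chosen with earlier results known, were set beside TvLac3 in the comparisons in which it was tested. Class II peroxidases are secreted heme enzymes that attack lignin with hydrogen peroxide. Of the 26, edgeR called 0 higher and 2 lower with lignin than with syringic acid, where 3.95% of all tested genes were higher and 4.79% lower. DESeq2 called 0 higher and 3 lower there, and 0 higher and 5 lower passed an unadjusted edgeR p of 0.05. With lignin against 4HBA 6 were higher and 3 lower (28.4% and 24.1% of all tested genes), and with syringic acid against 4HBA 7 were higher and 3 lower (26.2% and 22.0%). On poplar 6 rose and 9 fell relative to cellobiose alone (35.7% and 35.4%). DESeq2 called 4 higher and 4 lower with lignin against 4HBA, where 3011 of all genes were higher and 3356 lower. With syringic acid against 4HBA it called 5 higher and 3 lower, where 2752 genes were higher and 3089 lower. On poplar against cellobiose alone it called 5 higher and 9 lower, where 4324 genes were higher and 4370 lower.

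The 3 most abundant by reads were VP2, a versatile peroxidase by its symbol, and the manganese peroxidases MnP1s and MnP5s. Between lignin and syringic acid, where TvLac3 was higher, MnP1s was lower by a difference of -0.81, and VP2 (-0.16) and MnP5s (0.51) were not called. On poplar VP2 fell by 5.21, MnP1s fell by 4.35 and MnP5s fell by 6.62 on the log2 scale, where TvLac3 fell by 1.28. These 3 were picked for a high mean over all 15 libraries, which favours genes with high levels off poplar. Over all 26 class II peroxidases the median on poplar was -0.37, with 6 called higher and 9 lower. Nothing is therefore read from the size of the 3 falls beside that of TvLac3. Of the 5 genes with symbols of dye-decolorizing (DyP) and heme-thiolate (HTP) peroxidases, 0 were higher and 1 lower with lignin than with syringic acid, beside 3.95% and 4.79% of all tested genes, and the lower one was HTP1 (-0.72). DESeq2 and an unadjusted edgeR p of 0.05 also gave 0 higher and 1 lower. With lignin against 4HBA 3 were higher and 1 lower, beside 28.4% and 24.1% of all tested genes. With syringic acid against 4HBA 3 were higher and 1 lower, beside 26.2% and 22.0%. On poplar 1 rose, HTP2 by 0.61, and 3 fell, beside 35.7% and 35.4%. Among these DyP1 fell by 1.41 and HTP1 fell by 3.07. TvFet3A carries the symbol of Fet3, a multicopper ferroxidase of iron uptake in yeast. It differed by -0.11 between lignin and syringic acid, which was not called, and it fell by 2.21 on poplar.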

How the data were processed

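The deposited files hold raw counts of reads per gene, 1 file per library. Total RNA had been depleted of ribosomal RNA with a kit for yeast and made into stranded libraries, per the labels' protocols. FastQC, Bowtie2, Bowtie and HTSeq are named in the submitters' processing notes, while versions, settings and genome build were not given in the sources used here. Reads not placed in a gene made up 9.60% to 14.2% of entries in the 9 libraries with lignin, syringic acid or poplar and 45.8% to 48.7% in the other 6, and were left out. How reads shared by similar laccase genes were counted is not given. No library was a copy of another of its condition, since chi-square per gene between them was 7.24 to 61.5 over genes with at least 20 counts.

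Counts were TMM-normalized and tested with edgeR 4.0.16 (quasi-likelihood F-test, two-sided, R 4.3.3), all 15 libraries in 1 fit with 1 mean per condition. The default expression filter left 12295 genes, and p-values were adjusted over them (Benjamini-Hochberg). A gene was called at an adjusted p below 0.05. Log2 CPM used a prior count of 2. The script was tested on simulated counts. DESeq2 1.42.0 and other scalings, fits and left-out libraries were alternatives. TvLac3, the lists and the tests were chosen with earlier results of these data known. Named genes are TvLac3, all laccase and TvFet3 symbols, the 6 genes and 4 symbols most similar to TvLac3 and up to 3 of the most abundant members of each other list. The 2 adjacent genes were added after values were seen. Of the 14570 genes, 14560 were found in the RefSeq table. It holds no product names or sequences, so lists planned by product name (copper handling, quinone handling, hydrogen peroxide sources) had 0 members. Spans include introns, so levels per kilobase are approximate.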

Additional observations from a re-analysis of the deposited data

How the results depend on the processing

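No paired analysis was possible because the running numbers in the labels are shared by no 2 conditions of T. versicolor. All 60 recomputed TvLac3 differences kept their direction under RLE or upper-quartile scaling, TMM without genes above 1% of counts, no expression filter, the 2 groups fitted alone or DESeq2. Of these, 24 belong to tested comparisons and all 24 stayed called, and the 36 without a test moved by less than the SD between libraries. Upper-quartile scaling moved the median of all genes by -0.21 to 0.16 and gave 4597 higher and 1952 lower for syringic acid and 4541 and 2021 for lignin against cellobiose, 4915 and 1868 for syringic acid and 4944 and 2063 for lignin against 4HBA, and 3541 and 5982 for poplar against lignin and 3173 and 5929 against syringic acid. With 1 library left out all 60 kept their direction, 18 of the 24 tested stayed called and 6 lost the call. The range was -1.03 to -0.61 for syringic acid against 4HBA and 0.66 to 1.09 for lignin against 4HBA.

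Library totals alone, chosen after seeing the data, moved the median of all genes by up to 1.12. TvLac3 then differed by 2.29 for syringic acid and 3.99 for lignin against cellobiose, by -4.79, -3.09 and -2.83 for poplar against lignin, syringic acid and 4HBA, and by 0.26 for syringic acid against 4HBA, a reversal. Called genes numbered 11542 (11349 higher, 193 lower) and 11520 (11304, 216) for syringic acid and lignin against cellobiose, and 11690 (11567, 123) and 11577 (11409, 168) for syringic acid and lignin against 4HBA, where the values reported split nearly evenly (3330 and 2760, 3313 and 2825, 3227 and 2702, 3487 and 2959). The split was 615 and 1116 for 4HBA against cellobiose, and for poplar 2042 and 7776 against lignin, 1669 and 8040 against syringic acid, 7181 and 1883 against 4HBA and 6836 and 2167 against cellobiose. Reversed as well were TvLac2 and TvFet3A with syringic acid (0.14, 0.21) and lignin (0.71, 0.10) against cellobiose, TvLac4 and TRAVEDRAFT_25981 on poplar (0.0877, 0.11), and for syringic acid against 4HBA TvLac2 (0.52), TvFet3A (0.43), TRAVEDRAFT_43426 (0.26), TRAVEDRAFT_73002 (0.92), TRAVEDRAFT_71236 (0.99), TRAVEDRAFT_25981 (0.88) and TRAVEDRAFT_121349 (0.94). For lignin against 4HBA, TvLac1 (0.28), TvLac2 (1.0972), TvLac7 (0.41) and TvFet3A (0.32) reversed. The cause was not tested.

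Genes called for lignin against syringic acid numbered 344 with both groups fitted alone and 525 to 2258 with 1 library left out, and for 4HBA against cellobiose 1265 to 1772. Per gene length, TvLac3 took 12.8% of laccase reads on cellobiose alone and 68.4% with lignin. For the other 6 laccases, TvFet3A and the 6 most similar genes, 13 in all, 1092 values were recomputed under settings other than library totals, of which 1026 were unchanged in call, 43 lost it, 23 gained it and 0 reversed. Among the lost calls, TRAVEDRAFT_73002 (0.41) and TRAVEDRAFT_25981 (0.36) were not called for lignin against syringic acid with both groups fitted alone. Differences of single peroxidases and of the neighbours were not recomputed under these settings. Of 48 likeness values under another measure or set of libraries, 13 moved beyond the 95% interval of r. Depth did not limit TvLac3, whose lowest count was 660.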
